A study of Mus musculus with 2 samples.

Results

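The proteasome subunit genes are the protein-coding genes whose mouse symbol begins with Psma, Psmb, Psmc, Psmd, Psme, Psmf or Psmg followed by a number. The rule used the symbol alone and found 50 of 21474 protein-coding genes in the tables. They were read in MEL cells, a mouse erythroleukemia line of red cell precursors, after 5 days in 2% dimethyl sulfoxide (DMSO), an agent that starts hemoglobin synthesis in this line. Polyadenylated RNA was sequenced in 2 libraries of this 1 treated group, replicate 1 with 26149725 and replicate 2 with 14149299 estimated reads. Both libraries name the same cell sample in the labels, so the spread between them may be technical. Untreated cells were not analysed here, so the levels carry no information on what DMSO changed, and with 1 group there is no test. Fewer cells that make an RNA and less of it per cell cannot be told apart in such bulk samples.

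The proteasome is the protease that takes apart proteins tagged with ubiquitin. Its 20S core is a barrel of alpha rings, which form the gate, around beta rings, in which 3 kinds of beta subunit carry the catalytic threonine. The 19S regulatory particle on the end of the barrel binds the ubiquitin tag, removes it and unfolds the protein with a ring of ATPases. In immune cells, and in other cells under interferon, immunoproteasome subunits replace the catalytic ones. In red cell precursors the proteasome is known for removing unpaired globin chains and for clearing proteins that the mature cell no longer needs.

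The subunits that can replace each other are told apart by their sequence, which is shown here because the comparison of immunoproteasome with constitutive genes rests on it. Each line gives 36 bases of coding sequence from GENCODE M21 transcripts (mm10), 5′ to 3′ on the coding strand, with the codon of the catalytic threonine in capitals. That threonine becomes the first residue once the propeptide is removed.
Psmb8: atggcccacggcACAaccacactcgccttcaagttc
Psmb5: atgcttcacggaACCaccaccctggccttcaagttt
Psmb9: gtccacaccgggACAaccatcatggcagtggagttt
Psmb6: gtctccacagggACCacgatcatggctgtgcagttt
Psmb10: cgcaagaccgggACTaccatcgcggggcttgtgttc
Psmb7: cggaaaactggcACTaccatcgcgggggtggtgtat
Identity was counted over the aligned bases of both coding sequences, with gaps left out. Psmb8 was 67.9% identical to Psmb5, Psmb9 was 66.2% identical to Psmb6, and Psmb10 was 63.3% identical to Psmb7. None of the 3 pairs shared a stretch of 36 bases, so a read of that length or longer that matches without error falls to 1 gene of the pair.

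Nearly the whole set was present. Of the 50 genes, 47 reached 1 TPM (abundance corrected for transcript length and scaled to the same total in each library) in both libraries, beside 45.5% of all protein-coding genes. The genes together held 0.326% of estimated reads in replicate 1 and 0.380% in replicate 2, which came to 3211 and 3780 TPM. All 7 alpha genes, all 7 constitutive beta genes and all 17 genes of the 19S particle within the symbol rule had at least 10 TPM in both libraries. Their median was 54.5 and 65.6 TPM in replicates 1 and 2, against 13.8 and 15.9 TPM over the 9776 protein-coding genes detected by the same rule.

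The 3 genes below 1 TPM included the subunits known from particular tissues. Psma8, the alpha subunit of testis, had 0 reads in both libraries, a count that allows up to 0.115 CPM (reads scaled to library size) in replicate 1 and 0.212 CPM in replicate 2 for counting error alone. Psmb11, the catalytic beta subunit of the thymic cortex, had 2 reads in replicate 1 and 0 in replicate 2. Its neighbour Psmb5, 3410 bases away on chromosome 14, had 234 and 330 reads. Psme2b, a near copy of the activator gene Psme2, was listed at 0 in both libraries. Its coding sequence is 99.3% identical to that of Psme2 and 520 of its 682 stretches of 36 bases occur there, so reads of that length from the shared stretches could not be told apart.

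**Figure D1:**
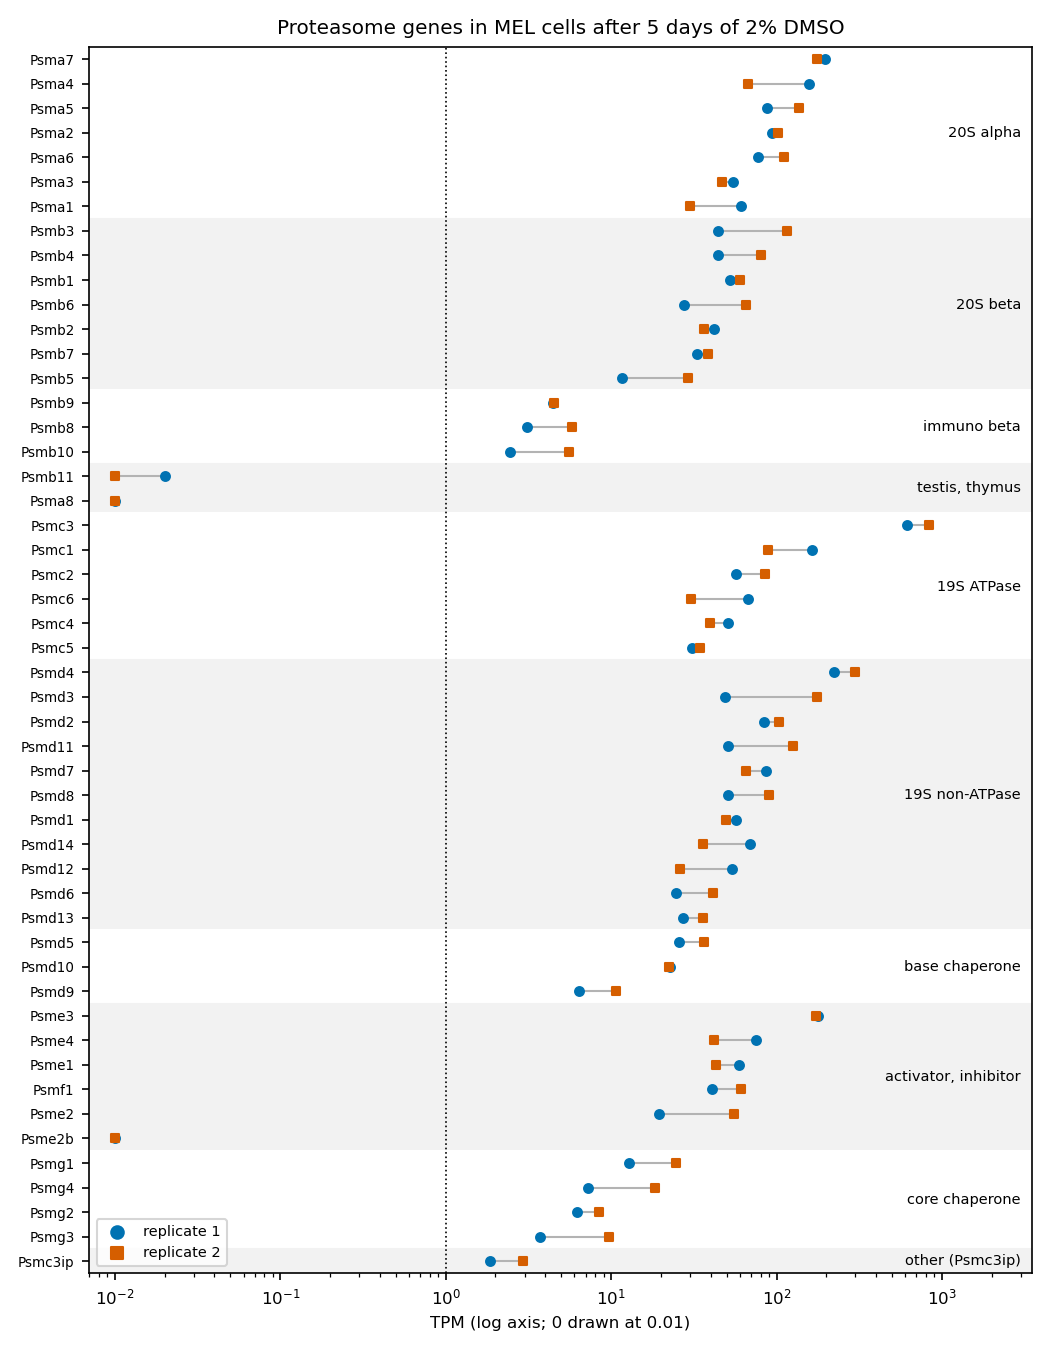
TPM of each of the 50 proteasome genes (log axis), with circles for replicate 1 and squares for replicate 2, grouped by role and ordered by mean level within a group. The dotted line marks 1 TPM, and genes at 0 are drawn at 0.01. The immunoproteasome and core chaperone genes lie left of nearly all genes of the core and of the 19S particle.

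The alpha genes, which build the outer rings and the gate, had a median of 87.6 and 102 TPM in replicates 1 and 2 (94.9 ± 10.4, mean ± SD, n = 2 here and below). Psma7 (alpha4; chromosome 2, 180036374 to 180042433, minus strand) led the group with 197 and 176 TPM, 186 ± 14.5. Psma2 (alpha2) had 93.7 and 102 TPM, and Psma5 (alpha5) had 87.6 and 136 TPM. Psma6 (alpha1) had 77.1 and 111 TPM. The libraries were close for Psma7 and Psma2. Psma4 (alpha3), whose tail takes part in closing the gate, had 157 and 67.4 TPM. Psma1 (alpha6) had 61.0 and 29.8 TPM. Psma3 (alpha7) had 54.5 and 46.6 TPM, but a processed pseudogene on chromosome 6, Gm13835, was identical to it over 685 bases and was listed at 144 and 90.8 TPM. The division of reads between this pair is uncertain, and with its 2 pseudogene copies Psma3 came to 198 and 137 TPM. Among all members 6 had such copies, 9 in number, and Gm13835 was the 1 copy with at least 1 TPM in both libraries.

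The constitutive beta genes stood below the alpha genes, with a median of 42.0 and 59.9 TPM in replicates 1 and 2 (51.0 ± 12.6), 0.480 and 0.586 times the alpha median. On coding transcripts alone the ratio was 0.528 in replicate 1 and 1.06 in replicate 2, so the lower place of the beta genes did not hold in replicate 2 on that scale. Psmb3 (beta3), which carries no active site, was the highest by mean with 44.3 and 115 TPM. Psmb4 (beta7) had 44.2 and 80.2 TPM, Psmb1 (beta6) had 52.5 and 59.9 TPM, and Psmb2 (beta4) had 42.0 and 36.4 TPM. These 4 genes encode the subunits of the beta ring that lack an active site in the mature particle. Of the 3 catalytic genes, Psmb5 and Psmb7 had the lowest means of the group. Psmb6 (beta1, the caspase-like site; chromosome 11, 70525367 to 70527858, plus strand) had 27.4 and 64.9 TPM, overlapping the range of every non-catalytic gene. Psmb7 (beta2, the trypsin-like site; chromosome 2, 38588036 to 38644087, minus strand) had 32.9 and 38.4 TPM. Psmb5 (beta5, the chymotrypsin-like site; chromosome 14, 54614119 to 54618022, minus strand) was the lowest of the 14 core genes in both libraries, with 11.7 and 29.1 TPM, and Psma1 lay close above it in replicate 2.

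The products of the 14 core genes stand in equal number in the particle, while their RNA levels did not. The highest core gene exceeded the lowest 16.9 times in replicate 1 and 6.04 times in replicate 2. On coding transcripts alone these values were 43.3 and 24.3 times, with Psma6 in place of Psmb5 as the lowest gene. The coefficient of variation across the 14 genes was 72.7% and 56.8%. For comparison, the coefficient of variation between the 2 libraries had a median of 30.5% over the detected members, with a range from 1.22% to 79.9%.

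The immunoproteasome genes were low. Psmb8 (beta5i; chromosome 17, 34197721 to 34201454, plus strand) had 3.09 and 5.82 TPM in replicates 1 and 2, against 11.7 and 29.1 TPM for Psmb5. It made up 20.9% and 16.6% of the pair. Psmb9 (beta1i; chromosome 17, 34181987 to 34187764, minus strand) had 4.43 and 4.54 TPM, against 27.4 and 64.9 TPM for Psmb6, or 13.9% and 6.54% of the pair. Psmb10 (beta2i; chromosome 8, 105935735 to 105938444, minus strand) had 2.46 and 5.54 TPM, against 32.9 and 38.4 TPM for Psmb7, or 6.97% and 12.6% of the pair. In each pair both libraries of the immunoproteasome gene lay below both libraries of its counterpart. The smallest gap between the ranges was that of Psmb8 and Psmb5.

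Summed over the 3 pairs, immunoproteasome genes held 12.2% of TPM in replicate 1 and 10.7% in replicate 2, 11.5% ± 1.04. These levels rest on few reads: 104 and 108 for Psmb8, 144 and 82.2 for Psmb9, and 73 and 93 for Psmb10. They were nevertheless above the tissue-restricted Psma8 and Psmb11, and 14.5% to 16.6% of detected protein-coding genes had a lower mean. Exons of Psmb9 overlap those of Tap1 on the opposite strand by 212 bases, and the labels do not state whether counting used the strand. The share of the summed pairs on coding transcripts alone was 12.8% and 10.5%.

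**Figure D2:**
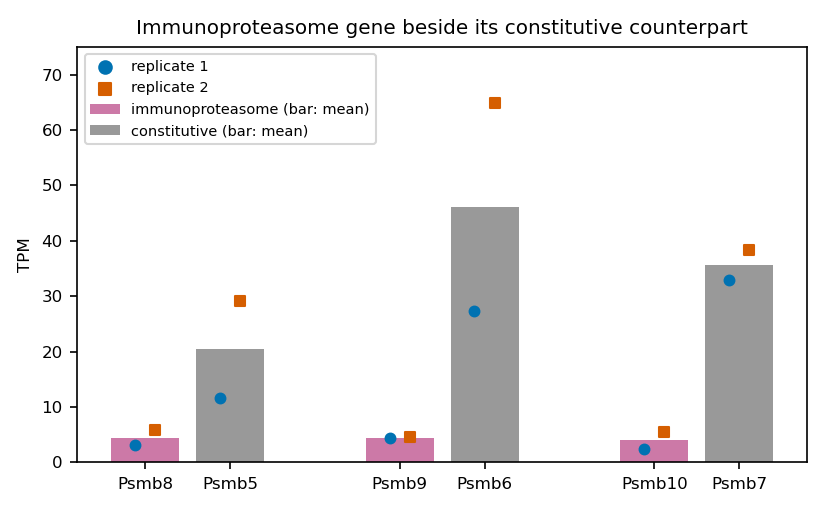
TPM of the 3 immunoproteasome genes, each left of the constitutive gene whose subunit it replaces. Bars give the mean of 2 libraries, circles replicate 1 and squares replicate 2. The immunoproteasome genes lie between 2.46 and 5.82 TPM and their counterparts between 11.7 and 64.9 TPM.

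Genes around and upstream of the immunoproteasome were read beside it. Psmb9, Tap1, Psmb8 and Tap2 follow each other on chromosome 17, in the major histocompatibility complex. The peptide transporter genes Tap1 (17.4 and 28.03 TPM) and Tap2 (9.87 and 21.2 TPM) were above Psmb8 and Psmb9 in both libraries, although on coding transcripts Tap2 had 1.32 and 2.96 TPM. Of 14 interferon and MHC class I genes, 10 passed the detection limit. B2m, the light chain of MHC class I, was the highest with 188 and 87.8 TPM, followed by the transcription factor gene Irf2 with 34.6 and 53.4 TPM. H2-D1, an MHC class I heavy chain gene, had 19.6 and 42.7 TPM, and Tapbp, the tapasin gene, had 16.6 and 45.5 TPM. The interferon genes Ifng and Ifnb1 had 0 reads in both libraries. Nlrc5, known as an activator of MHC class I genes, had 0.23 and 0.01 TPM.

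Immune cells are rich in immunoproteasome, so their markers were read as well. Of 6 macrophage and granulocyte markers none had 1 TPM in both libraries, and their sum was 1.37 and 3.85 TPM. Most of that sum came from Itgam (0.85 and 2.74 TPM) and Lyz2 (0.47 and 1.08 TPM), each above 1 TPM in replicate 2, while S100a8 and S100a9 were at 0, Adgre1 had 0.01 and 0 TPM and Csf1r had 0.04 and 0.03 TPM. Of 4 lymphocyte markers, Ptprc passed with 9.88 and 4.95 TPM of a sum of 12.3 and 5.84, Cd3e had 2.05 and 0.58 TPM, and Cd79a had 0.29 and 0.31 TPM. Of 4 dendritic cell markers, Cd74 and H2-Ab1 passed in a sum of 14.2 and 11.97 TPM, nearly all from Cd74 (12.5 and 10.5 TPM), and Itgax had 0.02 and 0 TPM. The part of such cells in the immunoproteasome level was not tested. The erythroid markers were all present, 10 of 10, with a summed level of 28225 and 76776 TPM, and neither the 2 testis nor the 2 thymic epithelium markers passed.

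The 19S genes stood near the core genes in level when all transcripts were counted. The 17 genes within the symbol rule had a median of 56.7 and 65.6 TPM in replicates 1 and 2. This was 1.06 and 0.992 times the median of the 14 core genes. On coding transcripts alone the ratio was 1.25 and 1.06. The ratio of the ATPase median to the core median was 1.16 and 0.947 on all transcripts, and 1.41 in both libraries on coding transcripts. The 6 ATPase genes, whose ring unfolds substrates, had a median of 62.1 and 62.7 TPM. Psmc3 (Rpt5; chromosome 2, 91054009 to 91066369, plus strand) had the highest level of the 50 genes, 616 and 838 TPM, and its range lay above every other member. Psmc1 (Rpt2) had 163 and 88.2 TPM. Psmc2 (Rpt1) had 56.7 and 85.5 TPM. Psmc6 (Rpt4) had 67.6 and 30.5 TPM, Psmc4 (Rpt3) had 51.2 and 39.8 TPM, and Psmc5 (Rpt6) had 30.9 and 34.4 TPM. Apart from Psmc3, each ATPase range overlapped that of at least 1 core gene.

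The 11 other 19S genes within the symbol rule had a median of 53.7 and 65.6 TPM. Psmd4 (Rpn10), a ubiquitin receptor, led them with 224 and 299 TPM, and its range lay above those of all members other than Psmc3. Psmd2 (Rpn1), the scaffold on which shuttle factors dock, had 84.2 and 104 TPM, and the related scaffold gene Psmd1 (Rpn2) had 57.0 and 49.3 TPM. Exons of Psmd1 share 301 bases on the same strand with Gm21972, which was listed at 41.1 and 43.4 TPM, so reads may have been divided between them. Psmd14 (Rpn11), the enzyme that removes the ubiquitin chain, had 68.7 and 36.02 TPM, and its partner Psmd7 (Rpn8) had 86.3 and 65.6 TPM. Some of the remaining lid genes had wide gaps between the libraries. Psmd3 (Rpn3) had 48.9 and 176 TPM, and Psmd11 (Rpn6) had 50.5 and 125 TPM. Psmd8 (Rpn12) had 51.1 and 90.3 TPM. Psmd12 (Rpn5) had 53.7 and 25.9 TPM, the reverse order of libraries. Psmd6 (Rpn7) had 24.7 and 41.4 TPM, and Psmd13 (Rpn9) had 27.2 and 35.99 TPM.

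Among activators and the inhibitor, Psme3 (PA28gamma), the activator of the nucleus, stood highest with 177 and 172 TPM, 175 ± 3.22. Psme4 (PA200), also nuclear, had 74.7 and 41.7 TPM. Psme1 and Psme2 encode PA28alpha and PA28beta, which form 1 ring and are known as interferon-inducible. They lie 5911 bases apart on chromosome 14. Psme1 had 59.2 and 42.9 TPM, and Psme2 had 19.5 and 55.0 TPM, so the order of the partners differed between the libraries. On coding transcripts alone Psme1 was higher in both, with 50.03 and 25.8 TPM against 12.4 and 12.2 TPM for Psme2. Psme1 and Psme2 were above Psmb8, Psmb9 and Psmb10, which are also known as interferon-inducible, in both libraries. Psmf1 (PI31), known as an inhibitor of the core in vitro, had 40.7 and 60.8 TPM.

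Assembly genes were mostly lower than the subunit genes. The chaperones of the 19S base leave before the proteasome is complete: Psmd5 (S5b) had 25.8 and 36.4 TPM, Psmd10 (gankyrin) had 22.8 and 22.4 TPM, and Psmd9 (p27) had 6.35 and 10.7 TPM. Their median was 22.8 and 22.4 TPM, 0.367 and 0.358 times that of the ATPases they bind. The 4 chaperones of the alpha ring had a lower median of 6.69 and 14.1 TPM, 0.125 and 0.213 times the core median. Psmg1 (PAC1) had 12.9 and 24.7 TPM and its partner Psmg2 (PAC2) had 6.18 and 8.42 TPM. Psmg3 (PAC3) had 3.70 and 9.65 TPM and Psmg4 (PAC4) had 7.20 and 18.5 TPM. By mean level, the 4 Psmg genes and Psmd9 were the lowest detected members apart from the immunoproteasome genes and Psmc3ip, while Psmb5 and Psmd10 ranked just above them with ranges that overlapped that of Psmg1. Pomp, the chaperone of beta ring maturation, falls outside the symbol rule and had 201 and 108 TPM, above all 7 assembly genes within it.

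In the order of all 50 genes by mean TPM, 44 of 49 neighbouring pairs overlapped in range. The 5 pairs without overlap lay after Psmc3, after Psmd4, after Psme3, after Psmd5 and after Psmc3ip, the last detected gene. Only neighbours were compared. Psmd3, ranked further down, overlapped Psme3, and Psmb5 overlapped Psmd5, so the levels did not separate at these places. Psmc3ip matches the symbol rule although its product is known as a factor of meiotic recombination and not as a proteasome component. It had 1.85 and 2.94 TPM, and none of this was on protein-coding transcripts.

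The level of a gene is the sum over its transcripts, and the annotated class of those transcripts changed the ranking. Psmc3 is the clearest case. A 429-base processed transcript held 92.1% of its TPM in replicate 1 and 87.8% in replicate 2, from 5293 and 3881 estimated reads. The protein-coding transcripts of Psmc3 together had 47.7 and 81.4 TPM, which would place the gene 12th of the members rather than first. The short transcript has 5 exons. All of its exons 2, 3 and 4 and 63 of the 71 bases of exon 5 are coding in other Psmc3 transcripts. Reads from these bases can also fit coding transcripts, so the division of reads between the transcripts is uncertain. Exon 3 of the short transcript is 126 bases long (mm10, chr2:91054979-91055104, plus strand). It is shown because the leading coding transcript of the gene in these libraries lacks it.
Psmc3 short transcript, exon 3: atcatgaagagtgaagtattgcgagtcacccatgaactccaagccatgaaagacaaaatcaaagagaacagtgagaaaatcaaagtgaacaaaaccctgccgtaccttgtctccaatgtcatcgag
No transcript of another gene aligned with this exon.

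Among the members, Psma6 was the other core or 19S gene with most of its reads outside coding transcripts in both libraries. Its coding transcripts had 4.32 and 5.97 TPM of 77.1 and 111 TPM, and a 520-base processed transcript held 66.8% and 55.1% of the gene's TPM. For Psma5, a 387-base transcript annotated for nonsense-mediated decay held 63.4% and 70.8% of TPM, yet 33.2% and 41.0% of reads. A short transcript takes a larger share of TPM than of reads because TPM divides by length. Psmd4 showed the same difference: a 314-base processed transcript held 68.6% and 51.1% of TPM and 31.5% and 18.1% of reads. Psmd2 and Psmc4 had most of their TPM on other classes as well, with 27.9% and 49.1% on coding transcripts for Psmd2 and 29.2% and 43.2% for Psmc4.

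Across the 47 detected members, 7 had less than 50% of TPM on coding transcripts in both libraries, the 6 above and Psmc3ip, which is 14.9% of them beside 14.6% of all detected protein-coding genes. Another 5 did so in 1 library, Psma3, Psmd11, Psmd14, Psme2 and Psmg1. For Psmg1, 37.2% and 61.6% of TPM lay on transcripts that have no match in GENCODE M21 and so no class. At the other end, 23 members had at least 90% on coding transcripts in both libraries, and 37 kept the same leading transcript. Neither count was made over all detected genes, so neither can be called particular to the members. Among all members Psma3 differed most between libraries in its coding share, with 9.35% in replicate 1 and 83.9% in replicate 2. Psma2, Psmb1, Psmb2, Psmb5, Psmb10, Psmc1, Psmc6, Psmd7, Psmd8, Psmd10, Psmd12, Psmg2 and Psmg4 had 100% of their TPM on coding transcripts in both. Only Psmb2 among them has quantified transcripts of another class, so for the others this share was fixed by the annotation.

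**Figure D3:**
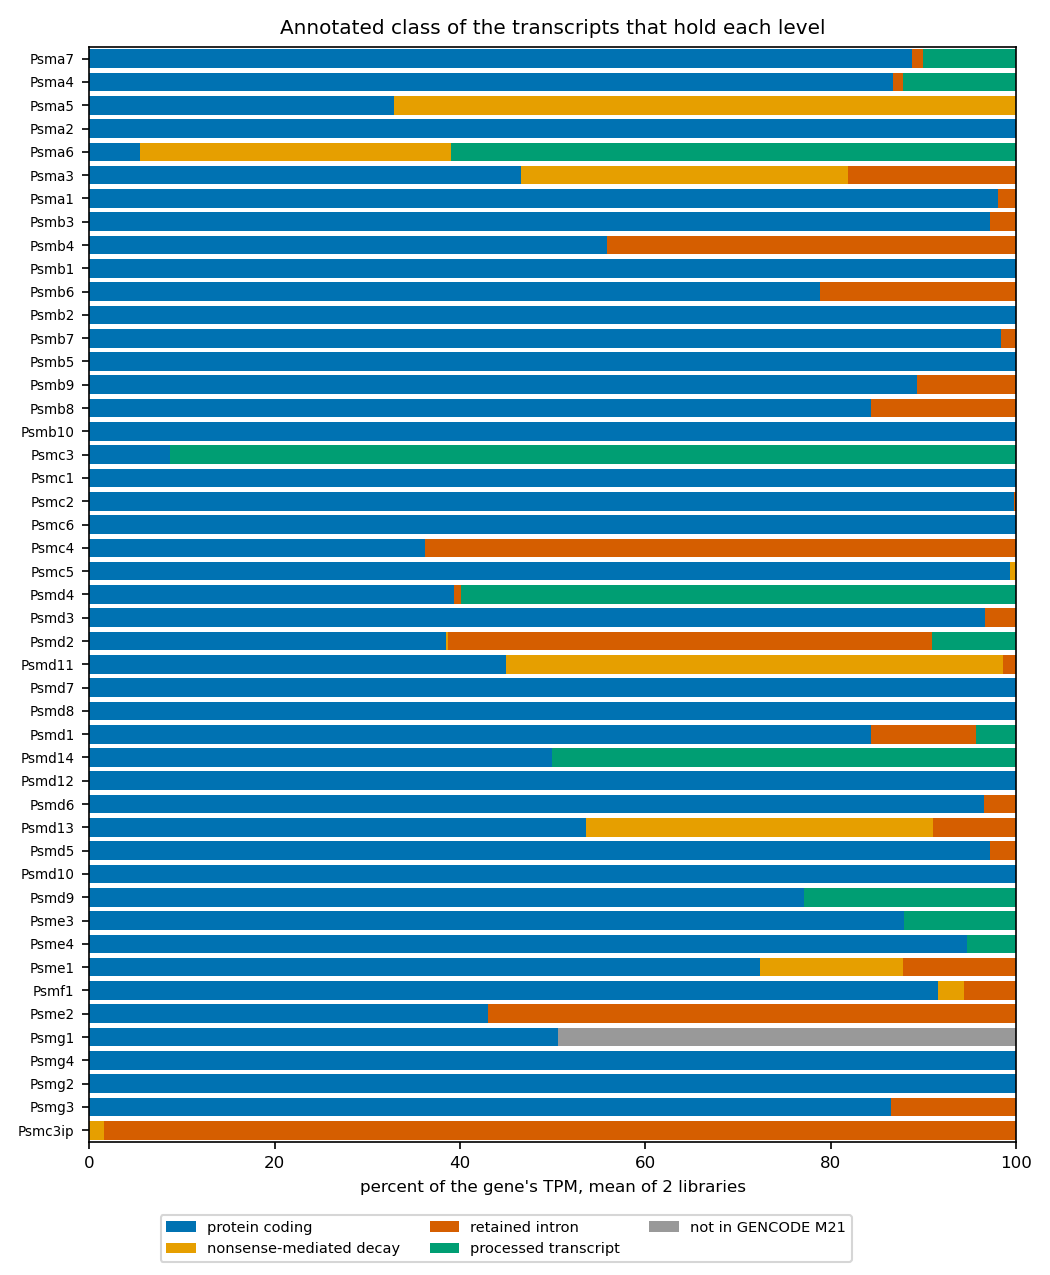
Share of each detected member's TPM held by transcripts of each annotated class, in percent and as the mean of 2 libraries, with members in the same order by role as in the plot of levels. Psmc3 and Psma6 show the smallest coding shares apart from Psmc3ip.

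Counted on coding transcripts alone, Psma7 had the highest mean of the members, with 187 and 145 TPM, and Psme3 the next, with 148 and 159 TPM. Their ranges overlapped, and the order differed by library, with Psmd3 highest in replicate 2 at 173 TPM. The median of the alpha genes was then 60.2 and 39.7 TPM, that of the beta genes 31.8 and 41.9, that of the ATPases 52.2 and 57.6, and that of the other 19S genes 45.9 and 43.4 TPM. The immunoproteasome genes stayed lowest of these groups at 2.46 and 5.42 TPM.

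The libraries were set against each other to show how firmly single members are known. The log2 ratio of scaled counts, replicate 2 over replicate 1, had a median of 0.30 over the 47 detected members and of 0.04 over all 11452 protein-coding genes that averaged 10 counts or more. Above 2-fold lay 6 members (12.8%), Psmd3 at 1.46, Psmb3 at 1.16, Psmb5 at 1.13, Psme2 at 1.11, Psmb6 at 1.10 and Psmg4 at 1.08, beside 14.1% of those protein-coding genes. Below 2-fold lay 5 members (10.6%), Psma4 at -1.75, Psmc6 at -1.34, Psma1 at -1.31, Psmd12 at -1.24 and Psmc1 at -1.07, beside 14.6%. These shares are near the background, and 1 library against 1 has no test.

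The ratio moved with the GC content of the transcripts. Spearman's rho was 0.64 over the 46 members with both values and 0.71 over all protein-coding genes, points that share the same pair of libraries. With the trend on GC content taken out, 3 members lay above 2-fold beside 5.37% of genes, Psma6 at 1.10, Psma2 at 1.07 and Psme2 at 1.04. Psma4 was the 1 member below, at -1.15, beside 6.93%. The immunoproteasome genes have a median GC content of 55.9%, and their median ratio was 0.68 as measured and 0.01 with the trend removed. With the trend removed their single values ran from -0.79 to 0.25. Other medians shrank as well, from -0.29 to -0.11 for the ATPases and from 0.13 to 0.04 for activators and inhibitor. That of the core chaperones went from 0.80 to 0.49 and that of the constitutive beta genes from 0.53 to 0.51. The remaining genes of the regulatory particle went from 0.50 to 0.37. The medians of the base chaperones, of the alpha genes and of all members grew in size instead. The base chaperones had 0.28 as measured and 0.69 with the trend removed. Over all members the median was 0.30 as measured and 0.35 with the trend removed, and for the alpha genes -0.20 and 0.60. The part of base composition in the levels of single members was not tested.

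**Figure D4:**
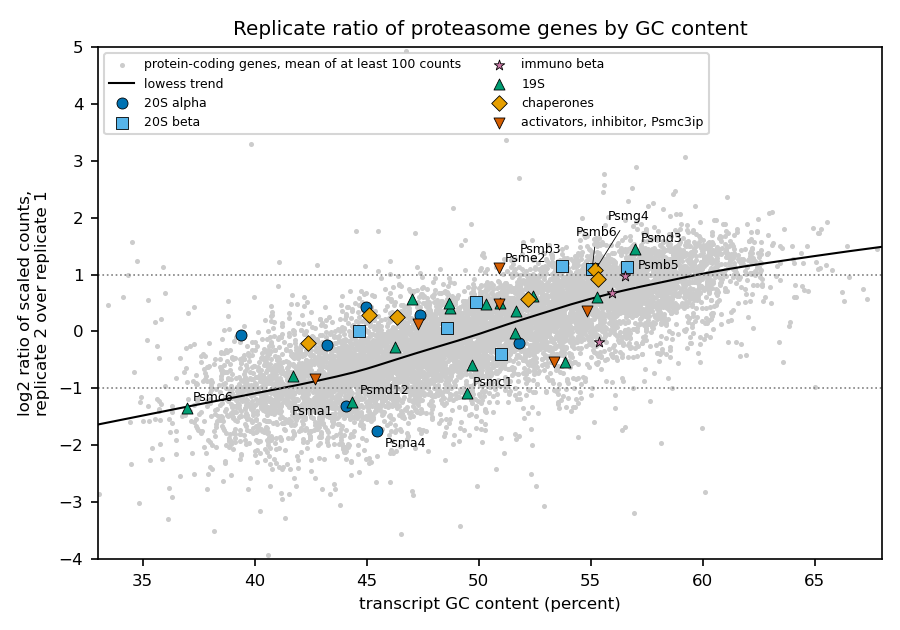
Log2 ratio of scaled counts, replicate 2 over replicate 1, against transcript GC content in percent for 46 members (coloured by role) and 8893 protein-coding genes averaging 100 counts or more (grey, 14 of them outside the axes), with the lowess trend as a line and dotted lines at 2-fold. Members past 2-fold are named. Those above lie at a GC content over 50% and those below under 50%.

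Other genes of the pathway were read from lists chosen by function. Of 10 symbols listed for proteasome genes outside the rule 6 were found, and all 6, Pomp among them, passed the detection limit. Adrm1 (Rpn13), a ubiquitin receptor, had 30.5 and 85.3 TPM, of which 3.62 and 28.2 TPM on coding transcripts, and Sem1 (Rpn15), a small lid subunit, had 39.2 and 59.8 TPM. Ecpas, the mouse gene for Ecm29, had 91.0 and 70.5 TPM. Akirin2, which takes part in nuclear import of proteasomes, had 81.1 and 46.1 TPM, and the thioredoxin-like Txnl1 had 60.2 and 31.8 TPM. All 11 proteasome-bound and shuttle genes passed too, with a median of 38.9 and 24.7 TPM. The deubiquitinase genes Usp14 and Uchl5 had 38.9 and 13.2 TPM and 72.7 and 21.4 TPM. Of the shuttle factors, Rad23b had 91.3 and 111 TPM (40.1 and 27.6 TPM on coding transcripts), Ubqln1 had 61.4 and 64.5 TPM, Ubqln4 had 22.8 and 69.1 TPM (15.8 and 36.4 TPM on coding transcripts), and Ubqln2 had 5.12 and 12.4 TPM. Zfand5, a proteasome-binding zinc finger gene, had 177 and 52.0 TPM, of which 28.96 and 21.6 TPM on coding transcripts, Fbxo7 had 31.7 and 24.7 TPM, and the ubiquitin ligase gene Ube3c had 11.8 and 14.3 TPM.

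Proteasome genes are known to be raised together by the transcription factor Nrf1, encoded by Nfe2l1, which is freed from the endoplasmic reticulum with the help of Vcp, Ngly1 and the protease Ddi2. Of 9 genes on this list 8 passed. Nfe2l1 had 43.3 and 46.4 TPM and the related Nfe2l2 had 45.6 and 43.6 TPM, while Nfe2l3 had 0.1 and 0 TPM. The first pair was close in level and between libraries. Vcp had 122 and 151 TPM, Ddi2 had 9.78 and 13.4 TPM, and Ngly1 had 5.03 and 4.27 TPM. Keap1, Bach1 and Mafg, genes of the partners and opponents of these factors, had 17.95 and 40.2, 40.9 and 38.7, and 12.3 and 30.5 TPM. Of the ubiquitin genes, Rps27a had 359 and 308 TPM and Ubb had 1452 and 4067 TPM, both higher than any member other than Psmc3 in both libraries.

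Promoter windows of 300 bases, most of each upstream of the start, were available from RefSeq (GRCm38.p6) for 42 members and 16317 protein-coding genes. TGACNNNGC, the letters of the element bound by Nrf1 and its relatives, occurred on either strand in 14.3% of the members and 15.1% of all genes. A gene counted if any of its windows matched, with 45 windows for the members and 19931 for all genes. Per window the shares for TGACNNNGC were 13.3% and 13.1%, so its direction depended on the unit. By gene, CCAAT occurred in 35.7% and 42.0%, GGGCGG in 54.8% and 51.4%, and TATAAA in 9.52% and 14.1%. Among the 7852 detected genes with a window the shares were 17.5% for TGACNNNGC, 43.9% for CCAAT, 71.7% for GGGCGG and 7.69% for TATAAA, so for the last pair the direction depended on the background. The interferon element, searched as GAAA, any 2 bases and GAAA again, occurred in 5 members (11.9%) in 4.002% of all genes and in 3.48% of detected genes. The 5 were Psmb3, Psmd4, Psmd9, Psme1 and Psmg4, and none of the 3 immunoproteasome genes held these letters in this window. A match is a run of letters and does not show that a factor binds there.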

How the data were processed

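PolyA RNA-seq of 2 libraries of 1 group was analysed. The build was mm10 and the annotation GENCODE M4, per the labels and file lists, while program and aligner were not given in the sources used here. Deposited by the authors were expected counts, unscaled, together with TPM and FPKM scaled to length and library size, and the percent of a gene's TPM on each transcript, per the file headers. The deposited bounds on TPM (unit signal) were not used in the text. Symbols, transcript classes and coordinates came from GENCODE M21 by Ensembl ID (42462 of 43346 genes matched). Rows with numeric identifiers held 0.0294% and 0.0465% of reads and, with 97 spike-in rows, stayed out of count methods. The members and all gene lists were chosen with earlier results of these data known. Every member is named. Of linked lists, every gene is named up to 12 genes, otherwise the 4 highest and 2 lowest, apart from Tap1, Tap2 and Nlrc5, named after their values were seen. A few listed genes are left unreported here. Shfm1, Ecm29, AI314180 and Paaf1 were not found by symbol.

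Levels are TPM per library, and detection means at least 1 TPM in both. Ratios used expected counts rounded to whole numbers, TMM factors (edgeR 4.0.16, R 4.3.3), a prior count of 1 and a mean of at least 10 counts. DESeq2 1.42.0 size factors were an alternative. The trend on GC content was fitted by lowess (span 0.3, 3 iterations) over genes averaging 100 counts or more. Pseudogene copies needed 95% identity over 80% of their length (BLAST+ 2.17.0). Other steps used Python 3.11.15, pandas 2.3.3, statsmodels 0.14.6, Biopython 1.88 and matplotlib 3.10.9. The ratio step was tested on simulated data that varied less between libraries than these data and held no GC trend. Floors are 3 counts and cover counting error alone.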

Additional observations from a re-analysis of the deposited data

How the results depend on the processing

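Of the summaries, the number of detected members was 46 on coding transcripts or without Psmc3ip, 42 at a limit of 5 TPM and 39 at 10 TPM, and the mean immunoproteasome share lay between 11.5% and 12.02% under the alternatives run on both libraries (10.7% to 12.2% with 1 library left out). With 1 library left out, the class medians kept to the values of the other library: 87.6 to 102 TPM (alpha), 42.0 to 59.9 (beta), 3.09 to 5.54 (immunoproteasome), 62.1 to 62.7 (ATPase), 53.7 to 65.6 (other 19S), 48.9 to 49.95 (activators and inhibitor), 22.4 to 22.8 (base chaperones) and 6.69 to 14.1 (core chaperones), with a core coefficient of variation of 56.8% to 72.7%. The median of activators and inhibitor includes Psme2b at 0 TPM, and without Psme2b it was 59.2 and 54.95 TPM in replicates 1 and 2. Medians moved by more than the replicate SD as follows. With posterior mean TPM, the ATPase median was 58.7, activators and inhibitor 46.9 and base chaperones 21.3, and with FPKM 59.1, 46.8 and 21.4. On coding transcripts the alpha median was 49.9, beta 36.8, ATPase 54.9, other 19S 44.7 and activators and inhibitor 37.8 TPM, with a core coefficient of variation of 84.3%. Rescaled to nuclear genes without pseudogenes, which raises all values by construction, the medians were 157 (alpha), 83.9 (beta), 7.04 (immunoproteasome), 104 (ATPase), 98.7 (other 19S), 82.5 (activators and inhibitor), 37.7 (base chaperones) and 16.8 (core chaperones). The median replicate ratio of members was 0.55 with library size alone, with 3 members below 2-fold, and 0.42 as a ratio of TPM + 0.1. These scalings moved the median of all genes by 0.25 and 0.19. On coding reads it was 0.073, and with the GC trend removed 3 members lay above and 1 below 2-fold. Psme2 was the 1 gene whose ratio above 2-fold reversed, to -0.035 on coding reads; the cause was not tested. No paired analysis was possible because 1 group holds both libraries. Of the detected members, depth limits Psmc3ip most (44 and 39.7 reads), then the immunoproteasome and Psmg genes, at 73 to 268 reads per library.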
